A study of Homo sapiens with 12 samples.

Results

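Genes of spindle assembly and cytokinesis were measured by RNA-seq in a pair of established LUAD (lung adenocarcinoma) cell lines that both carry MDM2 amplification (MDM2 ampl). The 10 genes ANLN, ECT2, RACGAP1, PRC1, CEP55, TPX2, HMMR, DLGAP5, NUSAP1 and FAM83D were taken by their Ensembl identifiers from a table of 20595 genes, and all 10 were found there. A549 is p53 WT (wild type) and H1792 is p53 mutant. Each line received for 48 h either RG7112 at 1 µM, a small molecule of the nutlin family that occupies the p53-binding pocket of MDM2, or DMSO, the solvent, as control. There were 3 replicates in each of the 4 groups, A549 DMSO, A549 RG7112, H1792 DMSO and H1792 RG7112. Each genotype is represented by 1 line, so p53 status cannot be told apart from any other difference between the lines.

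When a cell divides, a bipolar spindle of microtubules forms first, and its midzone then directs where an actomyosin ring constricts the cell before the daughters are cut apart. TPX2, HMMR, DLGAP5, NUSAP1 and FAM83D build or steady spindle microtubules, PRC1 bundles the antiparallel microtubules of the midzone, and the RACGAP1 and ECT2 pair activates RhoA beneath the membrane, where the scaffold anillin (ANLN) organises the ring. CEP55 then recruits the abscission machinery to the midbody. Transcripts of these genes peak late in the cell cycle, and in resting cells the DREAM complex, which includes MuvB proteins, represses such genes through promoter elements named CHR (cell cycle genes homology region), often beside CCAAT boxes bound by NF-Y, and p53 engages DREAM by way of the CDK inhibitor p21.

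RefSeq promoter windows (GRCh38.p14, 250 bases before to 50 after a start) were matched by symbol for 7 of the 10 genes, ANLN, ECT2, PRC1, CEP55, NUSAP1, HMMR and DLGAP5, with 8 windows because ECT2 has 2 that overlap. The letters of the CHR, TTTGAA on either strand, were found in 8 of the 8 windows and in 15.2% of all 35116 promoter windows of that length. The letters CCAAT on either strand were in 6 of the 8 windows, against 34.6% of all windows, and both motifs together were in 6, against 5.9%. An E2F-type stretch, GCGGGAA, was in 1 of the 8 windows (CEP55) against 6.55% of all, and the TATA letters TATAAA were in 1 (NUSAP1) against 11.5%. These are matches of letters in a window and do not show that a factor binds there. In NUSAP1, which is not shown, the CHR letters lay only after the start, at 14 bases. The 150 bases before the RefSeq start are shown for 4 of the 7 genes as examples, 5′ to 3′ on the strand of the gene, with the CHR and CCAAT letters in capitals: ANLN at chr7:36389712-36389861 (plus strand), PRC1 at chr15:90994536-90994685 (minus), HMMR at chr5:163460482-163460631 (plus) and DLGAP5 at chr14:55191586-55191735 (minus).
ANLN: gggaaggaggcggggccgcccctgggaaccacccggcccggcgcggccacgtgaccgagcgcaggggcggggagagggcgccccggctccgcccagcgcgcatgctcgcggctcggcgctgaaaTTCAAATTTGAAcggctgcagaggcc
PRC1: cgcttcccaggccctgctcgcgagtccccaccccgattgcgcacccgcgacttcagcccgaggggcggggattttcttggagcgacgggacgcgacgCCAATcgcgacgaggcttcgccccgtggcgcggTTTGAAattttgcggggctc
HMMR: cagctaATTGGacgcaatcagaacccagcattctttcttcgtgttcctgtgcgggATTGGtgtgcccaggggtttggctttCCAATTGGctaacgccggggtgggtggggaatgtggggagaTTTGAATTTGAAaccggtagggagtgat
DLGAP5: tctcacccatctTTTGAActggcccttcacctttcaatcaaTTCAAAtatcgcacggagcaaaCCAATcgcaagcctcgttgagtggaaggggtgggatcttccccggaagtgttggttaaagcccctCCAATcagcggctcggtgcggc

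Counted from the RefSeq start to a motif's first base, the CHR letters lay at -26 and -20 in ANLN, -20 in PRC1 and -28 and -22 in HMMR. In PRC1 the CCAAT letters lay at -53. In HMMR they lay at -95, -69 and -66 among others, and in DLGAP5 at -87 and -22. DLGAP5 held CHR letters at -138 and -109 and again at 4 bases after the start. The ANLN window held no CCAAT letters. The starts are not settled between annotations, since the GENCODE v29 gene begins 56 bases upstream of the RefSeq start in ANLN, 93 in DLGAP5, 429 in HMMR and 1094 in PRC1.

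Deposited counts summed to between 2011916 and 6218825 per sample. The drug's own readouts differed between the lines: CDKN1A (p21) rose in A549 from 37.2 ± 11.4 to 445 ± 431 CPM (log2 fold change 3.58, adjusted p = 0.0252) and MDM2 rose from 8.54 ± 4.99 to 69.2 ± 9.27 CPM (3.00, adjusted p = 0.0102), while H1792 gave 0.15 (adjusted p = 0.882) and -0.05 (adjusted p = 0.928). Keratin markers of epithelial cells were present in both lines. Of the same list, EPCAM had means of 0.67 (DMSO) and 0.62 CPM (RG7112) in A549, and 2.27 and 5.04 CPM in H1792. CDH1 had 12.5 and 17.25 CPM in A549, and 0.43 and 0.42 CPM in H1792. The alveolar list summed to at most 6.25 CPM in any sample, with 1 of its 5 markers above 1 CPM in A549 and 0 in H1792. H1792 carried collagen transcripts, with a fibroblast list at 1117 to 1426 CPM against 1.91 to 9.22 in A549, led by COL1A2 and COL1A1, while DCN stayed at or below 1.31 CPM. Leukocyte markers other than CD68 and all endothelial markers stayed near 0. Replicate 3 of A549 stood apart from replicates 1 and 2 under both treatments, with a chi-square per degree of freedom of 17.2 to 25.6 between its counts and theirs, against 5.38 to 5.93 for the other pairs of that line. Counts of calls that use A549 are given below with and without it. Nothing says that replicates were separate cultures, so p values measure the spread between these samples, which may be technical.

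CPM below, the usual scaling of counts to library size, was taken after 1 TMM normalization (trimmed mean of M values) over the 12 samples, values are listed in the order of replicates 1, 2 and 3, and errors are SD with n = 3. Adjusted p values come from edgeR's quasi-likelihood test with Benjamini-Hochberg adjustment over all genes tested, and a gene was called when its adjusted p was under 0.05 and its absolute log2 fold change over 1, which is a change of over 2-fold. In bulk RNA fewer cells that express a gene and less of its RNA per cell cannot be told apart.

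In A549 the RG7112 samples had lower levels of nearly the whole group. Of the 10 genes, 9 passed the filter on low counts, 9 of these had a negative log2 fold change and 8 were called lower: ANLN, ECT2, RACGAP1, PRC1, HMMR, DLGAP5, NUSAP1 and FAM83D. Over all 10739 genes tested in A549, 3.01% were called lower. In each of the 8 all 3 RG7112 samples lay below all 3 DMSO samples, which held for 16.3% of the genes tested. Without replicate 3 of both treatments 7 were called, all of the 8 but ECT2, against 2.69% of the genes tested in that fit. The median log2 fold change of the 9 genes was -3.76, or -3.36 with FAM83D set at the bound given below, against -0.01 over all genes tested.

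**Figure D1:**
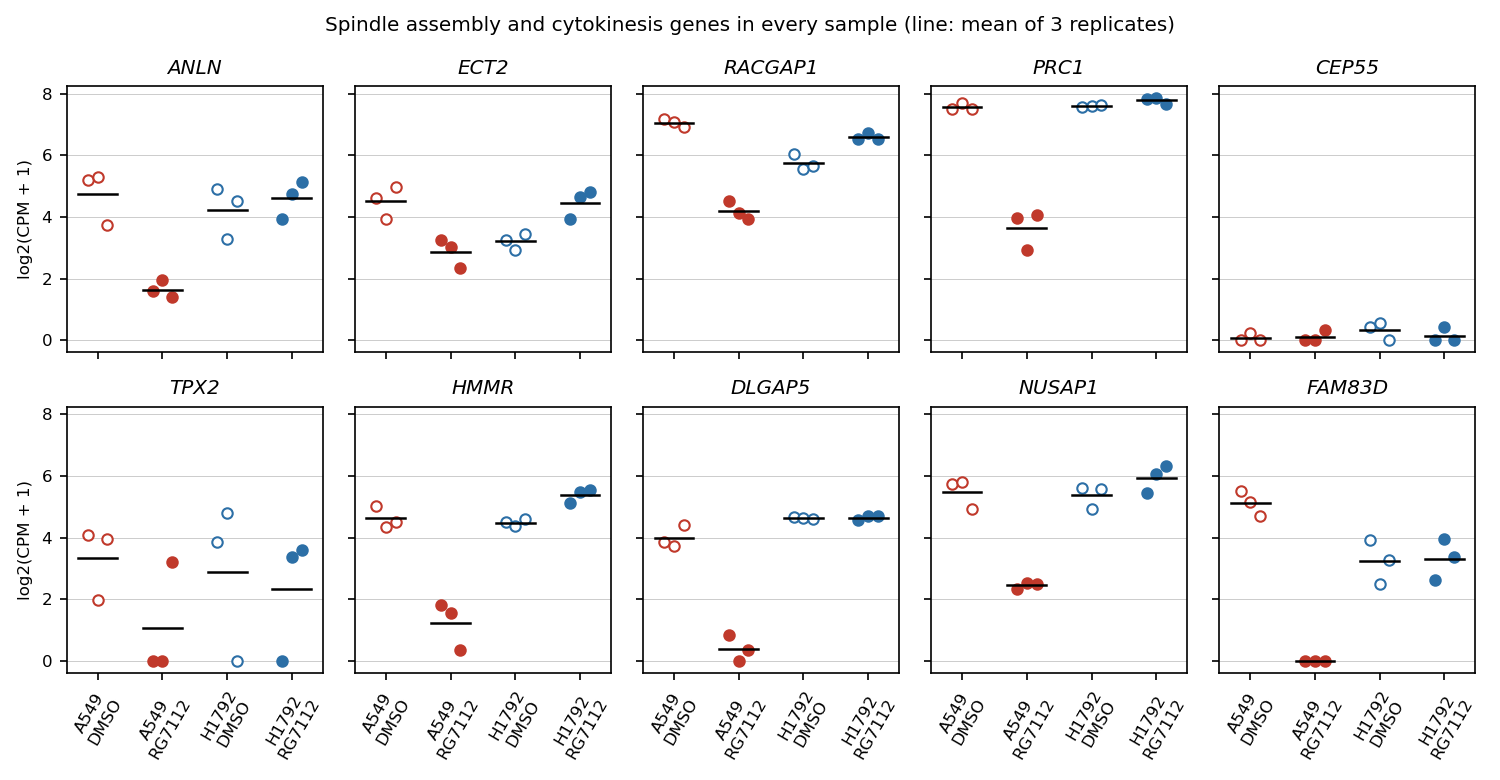
Level of each gene in every sample, as log2(CPM + 1) on the vertical axis, for the 4 groups on the horizontal axis (open circles DMSO, filled circles RG7112, red A549, blue H1792), with a line at the mean of the 3 replicates. In A549 the RG7112 samples lie below the DMSO samples for 8 genes, CEP55 lies near 0 throughout, and TPX2 is scattered from 0 upwards in 3 of the 4 groups.

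The genes of the ring and its RhoA switch are described first. ANLN (ENSG00000011426, chr7:36389806-36453791, plus strand, GRCh38), the scaffold of the contractile ring, stood at 35.9, 38.1 and 12.5 CPM in A549 DMSO and at 2.02, 2.86 and 1.63 CPM in A549 RG7112. The groups did not overlap, although DMSO replicate 3 lay well under the other DMSO samples, and the log2 fold change was -3.76 (SE 0.53, adjusted p = 0.00748), a 13.6-fold lower level.

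RACGAP1 (ENSG00000161800, chr12:49976923-50033136, minus strand), the GTPase-activating subunit of centralspindlin, had 145, 136 and 120 CPM in DMSO and 22.2, 16.7 and 14.4 CPM in RG7112. Its 3 replicates were close in each group, and its log2 fold change of -2.90 (SE 0.22, adjusted p = 0.0007) was a 7.44-fold lower level.

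ECT2 (ENSG00000114346, chr3:172750682-172821474, plus strand), the exchange factor that loads RhoA, had 23.7, 14.2 and 30.4 CPM in DMSO and 8.52, 7.15 and 4.07 CPM in RG7112. It was the smallest of the called changes in A549, -1.77 (SE 0.41, adjusted p = 0.0414). The call rested on all 6 samples: leaving out any 1 of them gave an adjusted p of 0.0553 to 0.127, and without replicate 3 of both treatments the log2 fold change was -1.23 (adjusted p = 0.0997).

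PRC1 (ENSG00000198901, chr15:90966038-90995629, minus strand), the bundler of midzone microtubules, fell from 182, 209 and 180 CPM to 14.6, 6.67 and 15.8 CPM, a log2 fold change of -3.90 (SE 0.30, adjusted p = 0.000843). The RG7112 samples held 14.9-fold less of it than the DMSO samples.

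CEP55 (ENSG00000138180, chr10:93496632-93529092, plus strand), which brings the abscission machinery to the midbody, could not be measured. It had at most 2 counts in any of the 12 samples, with totals of 1, 1, 3 and 2 in A549 DMSO, A549 RG7112, H1792 DMSO and H1792 RG7112, and was removed by the filter. No change could be measured from these counts, and why they are so low was not tested.

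HMMR (ENSG00000072571, chr5:163460203-163491945, plus strand), a microtubule-associated protein of spindle poles, had 31.5, 19.4 and 21.7 CPM in DMSO and 2.48, 1.91 and 0.272 CPM in RG7112. The lowest RG7112 value stood on 1 count and the highest on 16 counts. The log2 fold change was -3.89 (SE 0.60, adjusted p = 0.0107). It was -4.65 without RG7112 replicate 1, and the adjusted p over the fits without 1 sample ran from 0.00857 to 0.0489.

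DLGAP5 (ENSG00000126787, chr14:55148112-55191678, minus strand), a spindle protein also known as HURP, had the largest estimated change among the genes with a count left in RG7112. It went from 13.4, 12.1 and 20.2 CPM to 0.775, 0 and 0.272 CPM, and the RG7112 values stood on 5, 0 and 1 counts. The log2 fold change of -4.99 (SE 0.63, adjusted p = 0.00499) had a 95% interval of -6.48 to -3.50. It was -6.24 without RG7112 replicate 1, the sample with 5 counts, and the adjusted p over the fits without 1 sample ran from 0.0142 to 0.0241.

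NUSAP1 (ENSG00000137804, chr15:41332694-41381050, plus strand), which binds and bundles spindle microtubules near chromosomes, had 52.5, 55.1 and 29.4 CPM in DMSO and 4.03, 4.77 and 4.62 CPM in RG7112. DMSO replicate 3 was again the lowest of its group, and the RG7112 samples were nearly equal. The log2 fold change was -3.36 (SE 0.32, adjusted p = 0.00195).

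TPX2 (ENSG00000088325, chr20:31739271-31801805, plus strand), the activator of Aurora A on spindle microtubules, was the 1 tested gene not called in A549. Its counts were 51, 17 and 58 in DMSO and 0, 0 and 30 in RG7112, so RG7112 replicate 3 lay within the DMSO range. The log2 fold change was -1.99 with a 95% interval of -5.33 to 1.36 (adjusted p = 0.46), which spans a large fall and a rise. The value rested on RG7112 replicate 3, since both other RG7112 samples were at 0. It went to -8.57 without that sample (adjusted p = 0.0578) and to -8.34 without replicate 3 of both treatments (adjusted p = 0.0868), fitted values against samples at 0 that depend on the prior count and are no measure of a fold. Leaving out any other sample gave -2.46 to -1.32.

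FAM83D (ENSG00000101447, chr20:38926312-38953106, plus strand), which carries casein kinase 1 alpha to the spindle, was listed at 0 in all 3 RG7112 samples of A549. In DMSO its counts were 142, 203 and 101, or 44.3, 34.6 and 25.2 CPM. Its 9 values above 0 all lay within 0.55 counts of whole multiples of 20.25, and only 4 of 11598 genes examined moved in such steps, so a deposited count of 20 may stand for 1 unit of evidence. The 3 A549 DMSO samples then held 7, 10 and 5 steps. Against 3 steps over the 3 RG7112 samples, a limit of 4.97 CPM, the level of 34.7 CPM in DMSO was at least 6.99-fold higher. It was called at an adjusted p of 0.00197 on the deposited counts and 0.0422 on steps.

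**Figure D2:**
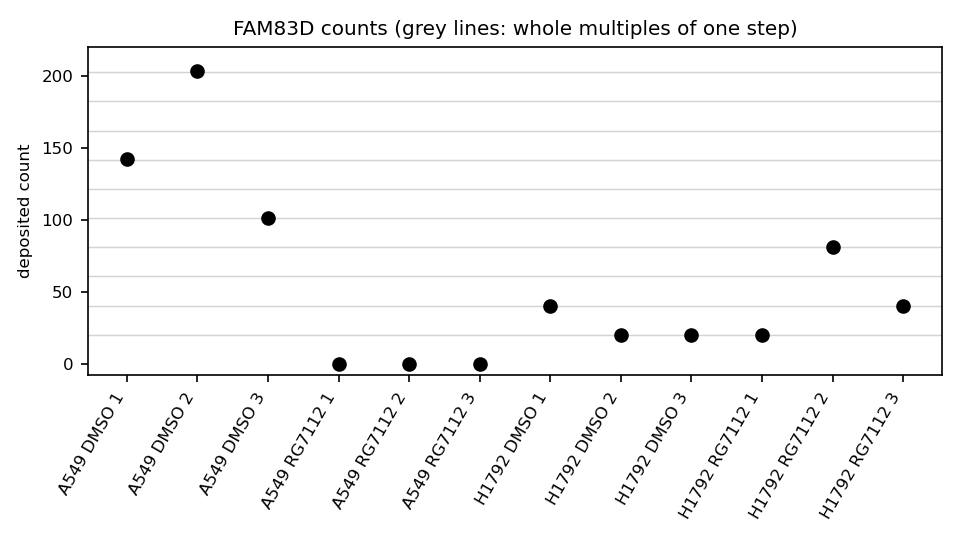
Deposited counts of FAM83D on the vertical axis in each of the 12 samples, with grey lines at whole multiples of 20.25 counts. Every value above 0 sits on a line, at 5 to 10 steps in A549 DMSO and at 1 to 4 steps in the H1792 samples, and all A549 RG7112 samples are at 0.

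Estimates at or near 0 were not limited to FAM83D, TPX2 and CEP55. RHOA, which dividing cells of every kind use and which was named after its values were seen, had 0 counts over all 6 A549 samples and 0 and 2 counts over the DMSO and RG7112 samples of H1792. Whether an estimate of 0 stands for a missing transcript, in RHOA or in FAM83D, TPX2 and CEP55, was not tested.

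In H1792 the genes did not fall as a group. Of the 9 tested, 8 had a positive log2 fold change, 2 were called higher (ECT2 and HMMR) and 0 lower, at a median of 0.42 against 0.01 over all genes. Over the 9914 genes tested, 10.3% were called higher and 4.34% lower. Without the fold threshold 4 passed an adjusted p of 0.05 as higher (ECT2, RACGAP1, HMMR and PRC1), against 17.7% of all genes. The same 4 had RG7112 samples all above the DMSO samples, against 24.9% of all genes.

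ECT2 had 8.46, 6.69 and 10.0 CPM in H1792 DMSO and 14.2, 24.2 and 27.0 CPM in H1792 RG7112, a log2 fold change of 1.46 (SE 0.32, adjusted p = 0.0155). HMMR had 21.9, 19.6 and 23.1 CPM in DMSO and 33.6, 43.8 and 45.4 CPM in RG7112. Its log2 fold change of 1.01 (SE 0.18, adjusted p = 0.00866) lay at the fold threshold. Neither ECT2 nor HMMR was called without DMSO replicate 2, without RG7112 replicate 2 or without RG7112 replicate 3, where the count was 0, and without DMSO replicate 1 it was 3, with RACGAP1 added.

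RACGAP1 had 65.2, 45.9 and 49.7 CPM in H1792 DMSO and 92.5, 105 and 91.5 CPM in RG7112, with a log2 fold change of 0.92 (SE 0.16, adjusted p = 0.00819) just under the threshold. PRC1 moved less, from 188, 196 and 197 CPM to 227, 232 and 205 CPM, a log2 fold change of 0.27 (SE 0.07, adjusted p = 0.0332), and leaving out 1 sample at a time gave an adjusted p of 0.0449 to 0.118. NUSAP1, at 48.3, 29.3 and 47.1 CPM in DMSO and 43.1, 66.2 and 78.9 CPM in RG7112, overlapped between the groups (0.67, adjusted p = 0.126).

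The other genes tested in H1792 did not pass. ANLN had 28.9, 8.77 and 21.8 CPM in DMSO and 14.5, 26.1 and 34.5 CPM in RG7112, and its log2 fold change of 0.42 had a 95% interval of -0.79 to 1.63. DLGAP5 was even in all samples, at 24.3, 24.0 and 23.5 CPM in DMSO and 22.7, 24.9 and 24.9 CPM in RG7112. Its log2 fold change of 0.09 had an interval of -0.26 to 0.44. FAM83D, at 2, 1 and 1 steps in DMSO and 1, 4 and 2 steps in RG7112, gave 0.17 with an interval of -1.11 to 1.45. TPX2 had counts of 38, 117 and 0 in DMSO and 0, 53 and 48 in RG7112, with a sample at 0 in each group, and gave -0.89 with an interval of -4.20 to 2.42.

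**Figure D3:**
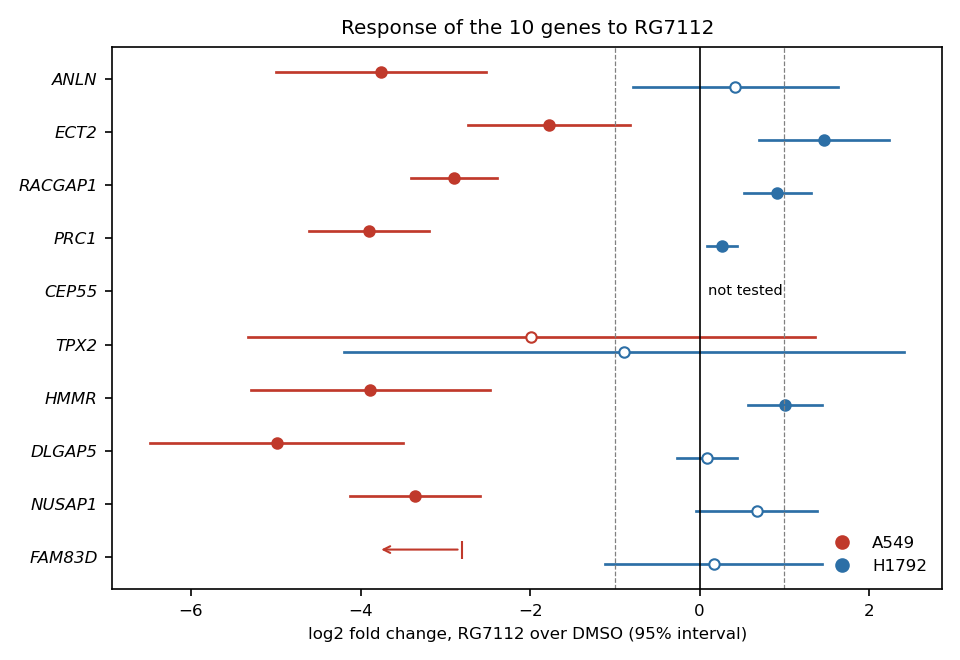
Log2 fold change of RG7112 over DMSO with its 95% interval for each gene in A549 (red) and H1792 (blue), where filled points passed an adjusted p of 0.05 and dashed lines mark the fold threshold. The bar and arrow for FAM83D in A549 mark a bound in place of an estimate, CEP55 was not tested, and the TPX2 intervals span 0 in both lines.

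Transcript GC content moved with the H1792 response. Over 9165 genes with a GC value, the log2 fold change in H1792 had a Spearman correlation of -0.48 with GC content, so GC-poor transcripts were higher with RG7112. In A549 the correlation was 0.25. The GC content of the 10 genes ran from 36.7% (HMMR) to 51.2% (FAM83D), with a median of 42.0% against 48.5% for the genes tested in H1792. With a GC correction all 9 log2 fold changes in H1792 moved down and 0 genes were called. ECT2 went to 0.80 (adjusted p = 0.0872), HMMR to 0.31 (adjusted p = 0.206), PRC1 to 0.06 (adjusted p = 0.659) and RACGAP1 to 0.49 (adjusted p = 0.0425). ANLN turned to -0.18 and DLGAP5 to -0.55 (adjusted p = 0.0321). The 8 calls in A549 were kept with the GC correction.

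**Figure D4:**
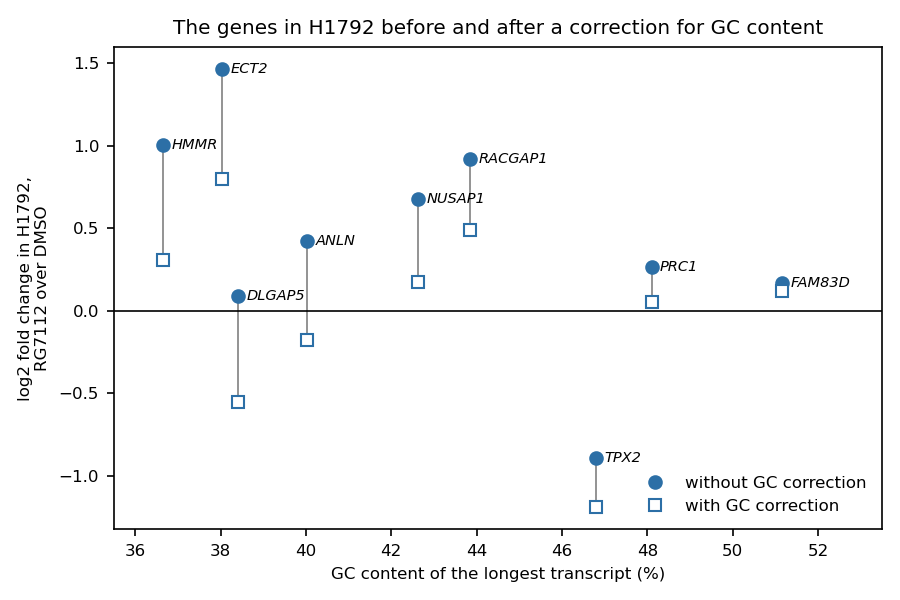
Log2 fold change in H1792 on the vertical axis against the GC content of the longest GENCODE transcript on the horizontal axis for the 9 genes tested, without (filled circles) and with (open squares) the GC correction. The lines are longest towards low GC, where DLGAP5 goes from 0.09 to -0.55 and HMMR from 1.01 to 0.31, and FAM83D hardly moves.

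The responses of the lines were then compared with each other, as the A549 log2 fold change minus that of H1792 in 1 fit over the 12 samples. Of the 9 genes tested, 8 were lower in A549 at an adjusted p under 0.05, with no fold threshold. The share over the 11666 genes tested was 11.4%. Without replicate 3 of A549 the count was 8 as well, beside a share of 11.9%. The differences were -4.08 for PRC1 (SE 0.29, adjusted p = 1.11e-05) and -3.74 for RACGAP1 (SE 0.27, adjusted p = 1.11e-05). DLGAP5 differed by -4.96 (SE 0.55) and HMMR by -4.80 (SE 0.59), or by -6.28 and -5.64 without A549 RG7112 replicate 1. NUSAP1, ANLN and ECT2 differed by -3.96, -4.12 and -3.16, and FAM83D passed at an adjusted p of 0.000728 (0.0158 on steps). TPX2 did not pass, at -0.997 with a 95% interval of -5.83 to 3.84.

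Between the DMSO controls of the lines the largest differences were in 3 genes. In DMSO 3 of the 9 tested were called higher in A549 than in H1792, ECT2, RACGAP1 and FAM83D, and 0 lower, against 20.4% of the 11666 genes called higher in A549. Without replicate 3 of A549 the count was 3 as well. RACGAP1 was at 133 ± 12.9 CPM in A549 and 53.6 ± 10.2 CPM in H1792 (log2 difference 1.32, SE 0.18, adjusted p = 0.000147). ECT2 was at 22.8 ± 8.16 and 8.39 ± 1.67 CPM (1.45, SE 0.38, adjusted p = 0.00871). FAM83D was at 34.7 ± 9.60 and 9.14 ± 4.75 CPM (1.94, SE 0.49, adjusted p = 0.00958), but its call was lost on steps (adjusted p = 0.0553).

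DLGAP5 lay lower in A549, at 15.2 ± 4.32 against 24.0 ± 0.387 CPM, with no overlap of the samples, and did not pass (-0.65, adjusted p = 0.110). PRC1 was nearly equal, at 190 ± 15.9 and 194 ± 5.25 CPM, with an interval of the log2 difference from -0.44 to 0.39. For HMMR, NUSAP1 and ANLN the intervals were -0.65 to 0.98, -0.51 to 0.79 and -0.55 to 1.66. The RG7112 samples of H1792 and the DMSO samples of A549 held ECT2 at 21.8 ± 6.73 and 22.8 ± 8.16 CPM.

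Levels of different genes were set side by side as CPM per kb of the longest transcript. In A549 DMSO the order was PRC1 (46.6 ± 3.89) and RACGAP1 (41.3 ± 3.98), whose samples overlapped, then NUSAP1 (19.0 ± 5.88) and FAM83D (14.03 ± 3.88), and then HMMR, ANLN, ECT2, DLGAP5 and TPX2 between 7.81 and 3.08. In that second part of the order, from NUSAP1 to TPX2, each gene overlapped its neighbour. In H1792 DMSO PRC1 again came first (47.3 ± 1.29), ahead of NUSAP1 (17.3 ± 4.41) and RACGAP1 (16.6 ± 3.16), which overlapped. DLGAP5 (8.06 ± 0.130) and HMMR (6.94 ± 0.570) stood next and did not overlap each other or the genes beside them. In A549 RG7112 RACGAP1 led (5.50 ± 1.24), ahead of PRC1 (3.02 ± 1.21). With H1792 RG7112 the head of the order was PRC1 (54.1 ± 3.50), RACGAP1 (29.8 ± 2.26) and NUSAP1 (26.0 ± 7.53).

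Across the 12 samples the genes largely moved together, a description that rests on 4 groups and above all on the low A549 RG7112 samples. Pearson's r of a gene's log2 CPM with the mean of the others was 0.958 for NUSAP1, 0.948 for PRC1, 0.932 for HMMR and 0.93 for RACGAP1. It was 0.71 for ECT2, which was low in both A549 RG7112 and H1792 DMSO, and 0.414 for TPX2. Within H1792 the r ran from 0.0116 for TPX2 to 0.878 for DLGAP5, and was 0.206 for PRC1. DLGAP5 varied little there, from 22.7 to 24.9 CPM over the H1792 samples. Of 11657 genes compared, those nearest to the mean of the group over the 12 samples were KIF23 (r 0.986), the kinesin partner of RACGAP1 in centralspindlin, MCM10 (0.984), a replication factor, DTL (0.983), an adaptor of a ubiquitin ligase, HASPIN (0.982), a mitotic histone kinase, and MKI67 (0.981), a proliferation marker.

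Other genes of the same processes were read from fixed lists, whose counts stand beside the shares over all genes. In A549 3.01% were called lower and 3.18% higher, and in H1792 4.34% lower and 10.3% higher. The response passed as lower in A549 than in H1792 for 11.4%, at an adjusted p under 0.05 with no fold threshold. Without replicate 3 of A549 the shares lower were 2.69% in A549 and 11.9% for the difference. Of 11 midzone and chromosomal passenger genes 9 were tested in A549, and 8 were called lower and 0 higher, with a median of -3.36. KIF23 went from 137 ± 7.84 to 13.96 ± 1.34 CPM (-3.28, adjusted p = 0.000283) and BIRC5 (survivin), a chromosomal passenger, from 156 ± 29.9 to 4.93 ± 1.74 CPM (-4.95, adjusted p = 0.000326). In H1792 1 of 9 was called lower and 0 higher, and both named genes passed only without the fold threshold, KIF23 at 0.37 (adjusted p = 0.0184) and BIRC5 at -0.57 (adjusted p = 0.0125). For the difference between the lines 7 of 9 passed as lower in A549. Without replicate 3 of A549 the counts were 6 of 9 in A549 and 6 of 10 for the difference.

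Genes of the furrow and abscission lists serve many processes outside mitosis. Of 13 furrow genes tested in A549 1 was called lower and 0 higher, with a median of -0.19. The furrow gene called lower over all samples was ARHGAP11A, a GTPase-activating protein, at 17.8 ± 7.10 and 1.69 ± 1.05 CPM (-3.49, adjusted p = 0.0117), while RHOC gave 0.64 (adjusted p = 0.103). Of 14 abscission genes 0 were called by edgeR, 2 had an unadjusted p under 0.05, and these 2, TSG101 (0.45, adjusted p = 0.127) and CHMP3 (0.45, adjusted p = 0.156), had the smallest adjusted p. Without replicate 3 of A549 1 furrow and 0 abscission genes were called by edgeR. In H1792 1 furrow gene was called higher, ARHGAP11A (1.23, adjusted p = 0.00655), and 1 lower, and RHOC gave -0.67 (adjusted p = 0.00404). In the abscission list 1 was called higher and 1 lower, the ATPase VPS4A (-1.42, adjusted p = 0.00272), and CHMP2A gave -0.71 (adjusted p = 0.00458). The difference between the lines passed an adjusted p of 0.05 as lower in A549 for 2 of 13 furrow genes and as higher for 2. In the abscission list it passed as lower for 0 of 14 and as higher for 3. Over all 11666 genes tested 1210 passed as higher. Without replicate 3 of A549 the furrow counts were 2 lower and 2 higher, and the abscission counts 0 lower and 5 higher. CHMP4B and CHMP4C were not analysed here.

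Of 34 spindle assembly genes tested in A549, 11 were called lower and 0 higher, with a median of -0.92. PIMREG, a mitotic protein, had 98.0 ± 6.39 and 5.15 ± 0.972 CPM (-4.28, adjusted p = 0.000283) and AURKA, the kinase that TPX2 activates, had 182 ± 34.0 and 33.0 ± 3.92 CPM (-2.46, adjusted p = 0.000881). In H1792 33 were tested, 7 called higher and 2 lower. CKAP2L had 5.10 ± 1.12 and 32.1 ± 4.03 CPM (2.73, adjusted p = 0.00272), and TUBGCP2, of the gamma-tubulin ring, 173 ± 27.7 and 35.0 ± 11.4 CPM (-2.22, adjusted p = 0.00323). The difference between the lines passed as lower in A549 for 20 of 36. Without replicate 3 of A549 the counts were 12 of 36 in A549 and 20 of 37 for the difference. KIF11 was not analysed here.

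Among 11 tested regulators of such genes (DREAM, MuvB and FOXM1), 2 were called lower in A549 and 1 higher. FOXM1, the activator of late cell cycle genes, went from 219 ± 31.1 to 16.2 ± 4.55 CPM (-3.76, adjusted p = 0.000463) and MYBL2, which joins MuvB in cycling cells, from 83.9 ± 22.1 to 3.08 ± 2.79 CPM (-4.70, adjusted p = 0.0146). The gene called higher was CDKN1A, and the counts were 2 and 1 without replicate 3 of A549 too. In H1792 2 were called higher and 1 lower. RBBP4, a MuvB and chromatin subunit, had 50.5 ± 9.55 and 98.1 ± 7.77 CPM (1.03, adjusted p = 0.00568). LIN54, the MuvB subunit that recognises the CHR, had 1 count over the 3 DMSO samples and 140 counts over the 3 RG7112 samples of H1792 (adjusted p = 0.00325), and 99 and 63 counts in A549. The difference between the lines passed as lower in A549 for 6 of the 11 regulators and as higher for 2. Without replicate 3 of A549 these counts were 6 and 1.

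**Figure D5:**
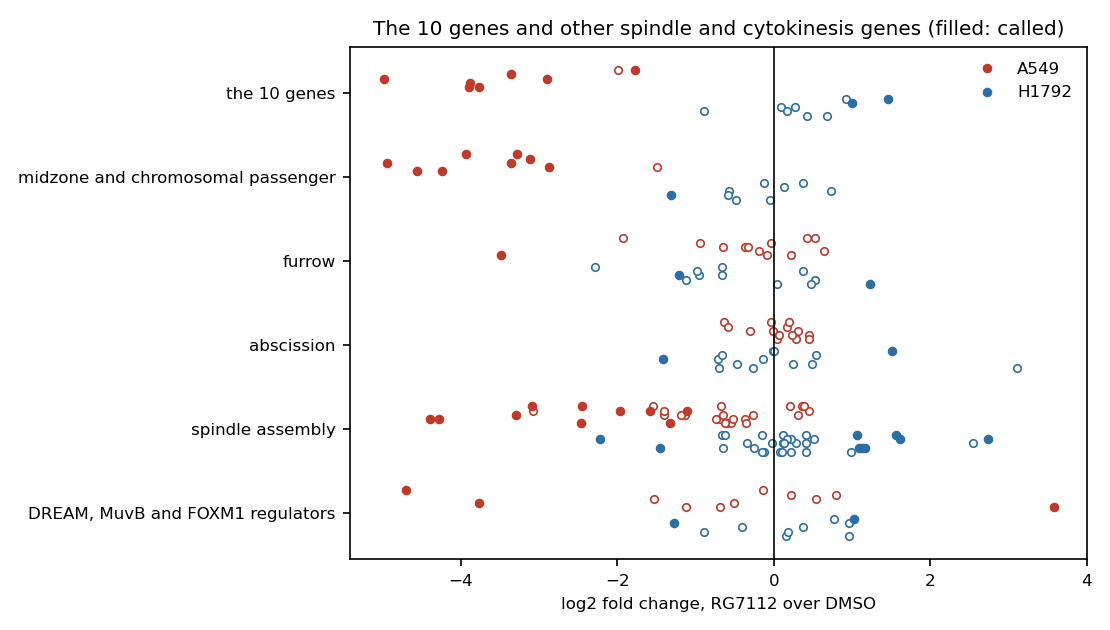
Log2 fold change of RG7112 over DMSO for the 10 genes and the 5 lists, 1 point per gene tested (red A549, blue H1792, filled where called). In A549 the 10 genes and the midzone list lie well to the left and the abscission list lies around 0. Left out are 3 values (FAM83D and ASPM in A549, LIN54 in H1792) where a group held at most 3 counts.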

How the data were processed

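Poly-A RNA of 12 samples was sequenced from both ends. Per the labels and the study's methods, reads were assigned to Ensembl GRCh38.95 transcripts with kallisto 0.45.0 and added up to genes. The authors deposited estimated counts (expected counts) per gene as whole numbers with no normalization between samples, from 2011916 to 6218825 per sample. Column names give 0.1 µM and labels 1 µM, and labels give reads of 38 bases and methods 150. The paper's results text and a legend swap the p53 status in places, and the series' design text was followed.

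Groups came from the labels. Genes were kept by filterByExpr (minimum count 10, total 15), scaled by TMM and tested with edgeR 4.0.16 (R 4.3.3, robust quasi-likelihood), per line over 6 samples, and for the interaction and DMSO contrasts over 12. The scripts were tested on simulated data. For single values, log2(CPM + 1) was also permuted exactly over the samples (two-sided), whose smallest p for 3 against 3, reached by every gene without overlap, is 0.1. GENCODE v29 named 18011 genes and gave positions and GC content, and longest transcripts gave kb. The GC correction was a loess offset (span 0.5) on genes with a GC value (92.1% to 92.6% of those tested). Estimated counts can be split between overlapping or similar transcripts, which was not tested for ANLN, PRC1, RACGAP1 and NUSAP1, each of which overlaps another gene in the table.

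Named genes were the 10, CDKN1A and MDM2, the 2 with the smallest p per list and line, and the 5 with the highest r. The genes, lists and tests were chosen with earlier results of these data known. Alternatives were RLE and library-size scaling, DESeq2 1.42.0, limma-trend 3.58.1 (prior count 2), filters, thresholds, GC correction, replicate block and leaving out samples. Leaving out replicate 3 of A549 and counting FAM83D in steps were chosen after seeing the data.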

Additional observations from a re-analysis of the deposited data

Results flagged for a closer look

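The response to RG7112 differed between A549 and H1792, by the interaction test over 12 samples, for 8 of the 9 genes tested. The A549 log2 fold change minus that of H1792 was -4.12 for ANLN (95% interval -5.84 to -2.40), -3.16 for ECT2 (-4.34 to -1.98) and -3.74 for RACGAP1 (-4.32 to -3.15). It was -4.08 for PRC1 (-4.71 to -3.44), -3.96 for NUSAP1 (-4.96 to -2.97), -4.8 for HMMR (-6.10 to -3.50) and -4.96 for DLGAP5 (-6.18 to -3.75). For FAM83D, listed at 0 in all A549 RG7112 samples, no difference is given, and the test passed at an adjusted p of 0.000728. Leaving out any 1 of the 12 samples kept the count at 8, and ANLN then ranged from -4.51 to -3.76 and ECT2 from -3.47 to -2.90. Over the other processing settings ANLN ranged from -4.54 to -3.35 and ECT2 from -3.53 to -2.29. Both passed in each setting where they were tested. Over 10745 genes the difference had a Spearman correlation of 0.43 with GC content.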

How the results depend on the processing

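In A549 the count of 8 fell to 4 when 10 counts were asked of every sample, where only 4 of the genes were tested, was 6 at an adjusted p under 0.01 (ECT2 and HMMR lost), 7 with the replicate block, with or without GC correction, and 7 in each of the 6 fits that left out a sample. The difference count of 8 fell to 4 with that filter, and was 8 in all 12 fits that left out a sample. The DMSO count was 3 in all 12. In H1792 the count of 2 went to 1 with RLE factors, limma-trend, all 12 samples in 1 fit, a replicate block or an adjusted p under 0.01, to 0 with the GC correction, alone or with the block, to 3 with library-size scaling (RACGAP1 added) and to 4 without a fold threshold. Leaving out a sample gave 0 to 3.

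Between their deviations, same-numbered A549 samples had r of 0.145, 0.0668 and 0.293, and A549 samples of different numbers -0.232 to 0.144. Pairs of replicate 3 with another number were all negative there, at -0.232 to -0.14. In H1792 same-numbered samples had -0.0386, -0.0182 and -0.0002, and the others -0.0267 to 0.0392. By this measure the numbers did not pair the H1792 samples. Whether they pair the A549 samples was not tested. With the replicate block ECT2 in A549 had an adjusted p of 0.0762 and HMMR in H1792 a log2 fold change of 0.99, and with block and GC correction the H1792 count was 0.

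Library-size scaling moved the median of all genes by 0.27 in H1792, -0.37 for the difference and 0.35 in DMSO. Signs turned for uncalled genes, and the cause was not tested. In H1792 ANLN went to -0.175 and DLGAP5 to -0.553 with GC correction, and to -0.107 and -0.553 with the block added. In DMSO between the lines PRC1 went to 0.241 (library size), 0.0438 (no filter), 0.145 (10 counts in every sample) and 0.0154 (without A549 replicate 3), and TPX2 to 0.714 (limma-trend). NUSAP1 and HMMR went there to -0.139 and -0.136 with GC correction and to -0.124 and -0.15 with the block added. Leaving out a sample gave H1792 ranges of -1.45 to 0.0636 for TPX2 and -0.25 to 0.641 for FAM83D. The DMSO ranges were -0.0668 to 0.375 for NUSAP1, -0.899 to 0.673 for TPX2, -0.0786 to 0.0285 for PRC1 and -0.0458 to 0.324 for HMMR. Of the other values for single genes, 660 kept direction and side of the threshold, 27 lost a call and 4 gained 1. With few counts left in A549 RG7112, DLGAP5, HMMR and ANLN are imprecise there.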

Other observations

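Several listed genes that dividing cells use had almost no counts in 1 or more of the 4 groups. ROCK2 had 0 counts over the 6 A549 samples and 0 and 1 over the DMSO and RG7112 samples of H1792, and CHMP1B had 0 in A549 and 1 and 1 in H1792. KIF14, a kinesin of the midbody, had 28 counts over the 3 DMSO samples and 0 over the 3 RG7112 samples of H1792. ASPM, a spindle pole protein, had 71 counts over A549 DMSO and 1 over A549 RG7112, and CKAP2L had 121 and 1. In H1792 CKAP2L went the other way, with 47 counts over DMSO and 441 over RG7112. BORA and TUBGCP5 also had more counts with RG7112 in H1792, 1 and 22 for BORA and 3 and 18 for TUBGCP5. These genes were named after their values were seen.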
